A study of Mus musculus with 12 samples.

Results

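The IL-33 axis and the mast cell genes examined here were 9 genes chosen by symbol, with Ensembl identifiers converted to mouse gene symbols. They were Il33, its receptor Il1rl1, the cytokines and growth factor Tslp, Il13 and Areg, and the mast cell genes Cpa3, Cma1, Mcpt4 and Fcer1a. All 9 were present among the 51825 genes of the CPM table (counts scaled to the mapped reads of each library), and 7 were among the 16152 genes of the raw count table. Il13 and Fcer1a were absent from the count table, which the study had limited to expressed genes. RNA of whole lungs from wild-type C57BL/6 mice was sequenced at 2 embryonic time-points, E15.5 and E18.5, and 2 postnatal time-points, P5 and P8, with 3 replicates at each. No treatment or genetic change was involved, and both females and males were used. All 3 replicates of an age came from littermates, so litter and age cannot be told apart, and p-values measure the spread between the libraries of 4 litters.

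IL-33 is an alarmin, a cytokine held in the nucleus of epithelial and other barrier cells and released when they are damaged. It binds ST2, the receptor encoded by Il1rl1, which pairs with the IL-1 receptor accessory protein on mast cells and group 2 innate lymphoid cells (ILC2) and drives type 2 cytokines such as IL-13 and the epidermal growth factor receptor ligand amphiregulin. Mast cells store proteases in granules bound to the proteoglycan serglycin, and carry the high-affinity IgE receptor on their surface. Because whole lungs were sequenced, a change in the number of cells of a type and a change in RNA per cell cannot be told apart.

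The libraries held 41337443 to 53901957 counts on the count table and 48436716 to 62279460 mapped reads, so that 3 reads of a gene equalled 0.0482 to 0.0619 CPM. Lung identity was clear from Sftpc, the surfactant protein C gene of alveolar type 2 cells, which was at 505 CPM or more in every library. Some libraries also held RNA of neighbouring tissues. The summed level of 11 thymus markers was 391 CPM in P8 replicate 2, 204 CPM in P8 replicate 1 and 62.7 CPM in E15.5 replicate 2, against 4.70 to 16.6 CPM in the other 9 libraries. The summed level of 10 heart, oesophagus and brown fat markers was 604 to 1346 CPM in E15.5 replicates 1 and 2 and P8 replicates 1 and 2, and 15.2 to 254 CPM elsewhere. Where leaving these libraries out changed a call on a member, the value is given beside it.

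Most calls among these genes fell in the interval that spans birth. Between E18.5 and P5, 5 of the 7 members tested rose past a log2 fold change of 1 and a false discovery rate (FDR) of 0.05 in edgeR's quasi-likelihood test. They were Il33, Il1rl1, Cpa3, Cma1 and Mcpt4, and 17.5% of all 15994 genes tested rose by the same rule. Between E15.5 and E18.5, 1 of 7, Mcpt4, rose, against 1.59% of all genes. Mcpt4 was at 0.366 CPM or less before birth and met the minimum for testing, 1 CPM in 3 libraries, only through P5 and P8. With only the 6 libraries of E15.5 and E18.5 it was too low to be tested, and 0 members were called. Between P5 and P8, 0 of 7 changed in edgeR or DESeq2, and 0 had an unadjusted p under 0.05, while 2.88% of all genes rose. From E18.5 to P8 the same 5 members rose (19.6% of all genes), and from E15.5 the 4 other than Cpa3 rose both to P5 (19.5%) and to P8 (20.9%). The comparisons that skip a time-point share libraries with the others. No member fell past both cutoffs in any comparison, where 1.46% (E15.5 to E18.5), 9.34% (E18.5 to P5), 0.0875% (P5 to P8), 12.4% (E15.5 to P5), 11.5% (E15.5 to P8) and 9.38% (E18.5 to P8) of all genes fell. The median log2 fold change of the 7 members between E18.5 and P5 was 1.60, against -0.002 over all genes tested.

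**Figure D1:**
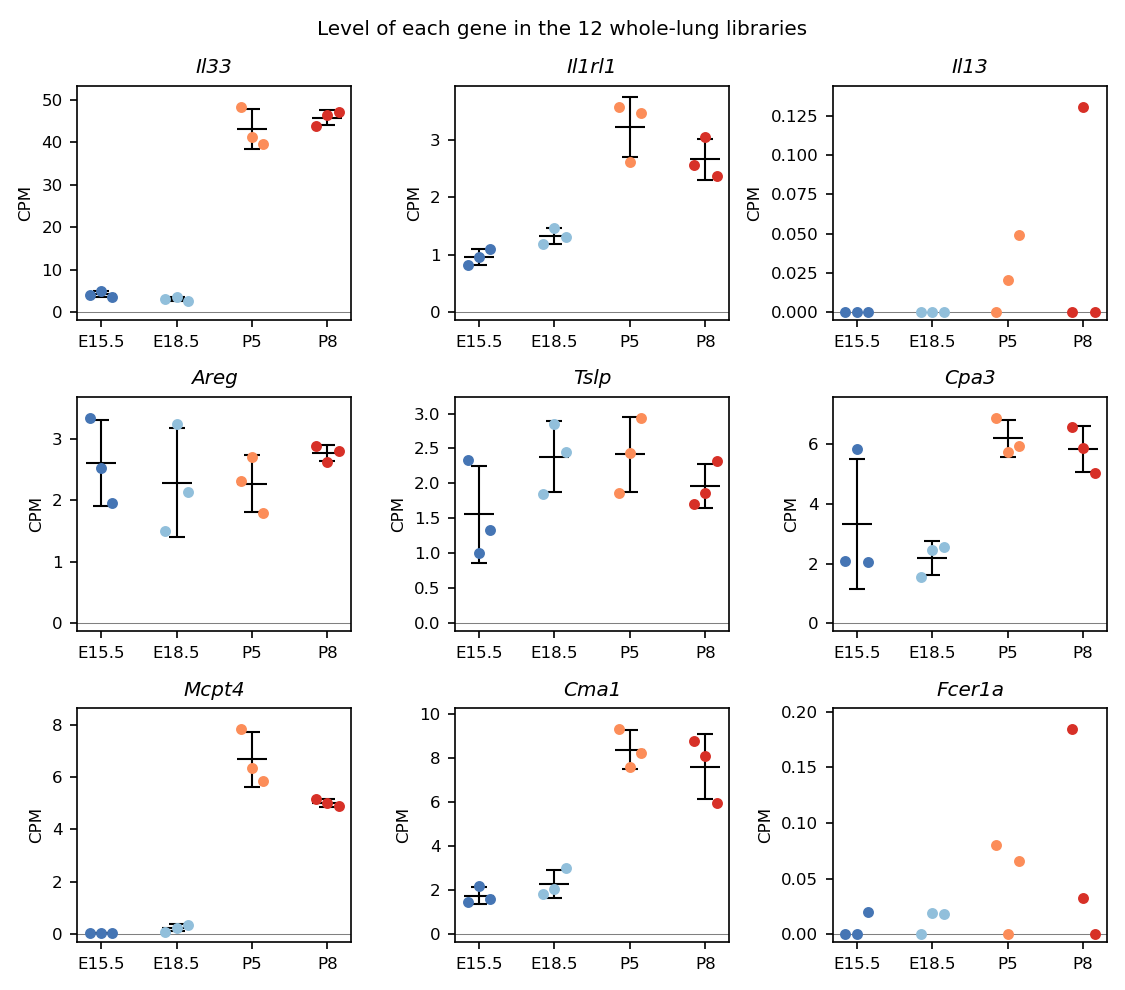
Level of each of the 9 genes (CPM, y axis of each panel on its own scale) in the 3 libraries of each time-point (x axis). Each point is a library, and the horizontal mark and bars give the mean and SD, which are left out for Il13 and Fcer1a. Il33 lay between 2.56 and 5.05 CPM in the embryonic libraries and between 39.4 and 48.4 CPM in the postnatal libraries.

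Il33, which encodes the ligand, lies on mouse chromosome 19 at 29925114 to 29960718 of GRCm38 (mm10), on the plus strand. Its level was 4.05, 5.05 and 3.68 CPM in the 3 E15.5 libraries and 3.02, 3.52 and 2.56 CPM in the 3 E18.5 libraries. At P5 it was 48.4, 41.3 and 39.4 CPM, and at P8 43.7, 46.4 and 47.0 CPM. All 6 postnatal libraries lay above all 6 embryonic libraries, as in 26.6% of all genes, and the E18.5 libraries lay below those of E15.5, as in 19.8%. The rise from E18.5 to P5 was 15.1-fold (log2 fold change 3.92, SE 0.146, FDR 1.18e-09 in edgeR). From E15.5 to E18.5 the log2 fold change was -0.48 (SE 0.145, edgeR FDR 0.0338), which passed the FDR, as did 9.87% of all genes for a fall, and not the fold cutoff. P5 and P8 overlapped (log2 fold change 0.07, edgeR FDR 0.747). The order of the mean levels was E18.5, E15.5, P5 and P8, and the last 2 did not differ beyond their spread.

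Divided by the summed length of its exons, 2886 bases, Il33 stood at 14.9 CPM per kilobase at P5 and 15.8 at P8, above each of the other 8 members. At E15.5 its mean of 1.48 CPM per kilobase was below those of Cpa3 (2.19), Areg (2.14) and Cma1 (1.61). Markers of alveolar type 2 cells, a cell type in which Il33 is known to be transcribed in the postnatal lung, moved in the same interval. Of 10 such markers, 9 rose between E18.5 and P5, against 17.5% of all genes. The summed level of the 10 went from 1677 to 2587 CPM at E18.5 to 19540 to 22560 CPM at P5. The read ratio of Il33 to Sftpc was 0.550% to 1.0% at E15.5, 0.194% to 0.238% at E18.5, 0.340% to 0.367% at P5 and 0.401% to 0.481% at P8. Every postnatal library lay above the E18.5 libraries and below the E15.5 libraries in this ratio. Sftpc is 1 of the 10 markers, and the direction of the ratio depends on the marker chosen. From E18.5 to P5 the median log2 fold change of the 10 was 4.445, above the 3.92 of Il33. The pooled log2 difference of the 6 postnatal from the 6 embryonic libraries was 0.02 (two-sided exact permutation p = 0.952, also 0.952 adjusted over 5 ratios), which describes neither interval since the 2 embryonic ages lie on opposite sides. The part of type 2 cell abundance in the Il33 rise was not tested. Genes whose log2(CPM + 1) profile over the 12 libraries was among the 3 most like that of Il33 were Il1rn, which encodes the IL-1 receptor antagonist (Pearson r = 0.997), and Bpifb5 (0.996). These values describe likeness only, since the 12 libraries fall into an embryonic and a postnatal cluster.

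Il1rl1, the ST2 gene, lies on chromosome 1 at 40429570 to 40465415 on the plus strand. It was at 0.823, 0.963 and 1.1 CPM at E15.5, and at 1.19, 1.47 and 1.32 CPM at E18.5. The P5 libraries held 3.58, 2.62 and 3.47 CPM and the P8 libraries 2.57, 3.05 and 2.37 CPM. Every postnatal library was above every embryonic one (26.6% of all genes), and the E15.5 and E18.5 libraries did not overlap either (18.3% of all genes for a rise). The rise from E18.5 to P5 was 2.58-fold (log2 1.37, SE 0.218, edgeR FDR 1.07e-04), beside the 15.1-fold of its ligand. The E15.5 to E18.5 difference was 0.47 on the log2 scale and did not pass (edgeR FDR 0.150), nor did the P5 to P8 difference of -0.30 (edgeR FDR 0.349). Between E18.5 and P8 the rise was 2.1-fold (log2 1.07, edgeR FDR 6.96e-04), close to the fold cutoff. It was 0.91 without the 3 libraries highest in thymus markers and 0.97 without P8 replicate 2, both under the cutoff with an FDR under 0.05, and likewise 0.908 without the 4 libraries highest in heart, oesophagus and brown fat markers. Per kilobase of exon the receptor was at 0.140, 0.193, 0.468 and 0.386 CPM at the 4 time-points in order of age.

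Il1rap, which encodes the shared accessory chain, was at 15.53 to 19.96 CPM at E15.5, and at 21.8 to 25.6 and 24.5 to 25.3 CPM in the last embryonic and first postnatal libraries. Across birth, from E18.5 to P5, its log2 change was 0.12 (SE 0.131, edgeR FDR 0.415). Of the 12 genes listed for the receptor complex and its signalling, 2 rose past both cutoffs in that interval, a share near the 17.5% of all genes that rose, with a list median of 0.45. These were Irak2, a kinase of the pathway (log2 1.84), and Tnfaip3, an inhibitor of NF-kappaB signalling (log2 2.20). The adaptor gene Myd88 had a log2 fold change of 0.76 (edgeR FDR 2.20e-05), under the fold cutoff. Of the list, 9 genes passed the FDR alone, including Tab2 and Map3k7, which were lower. Over all genes, 35.4% were higher and 35.7% lower by that looser rule.

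Tslp encodes thymic stromal lymphopoietin, an epithelial alarmin, and lies on chromosome 18, where it overlaps a gene on the opposite strand, 4930455D15Rik. How the libraries kept strand is not given in the sources used here, so reads of the 2 genes may not be separable. In CPM, its E15.5 libraries ran from 1.0 to 2.34, those of E18.5 from 1.85 to 2.85, those of P5 from 1.86 to 2.94 and those of P8 from 1.70 to 2.32. The time-points overlapped in every comparison, and none passed the test. The value nearest to it was the E15.5 to P5 difference (log2 0.71, SE 0.306, edgeR FDR 0.0501), where 2 of 3 E15.5 libraries lay below all P5 libraries. Without E15.5 replicate 1, the highest of that time-point, this difference was 1.124 and that from E15.5 to E18.5 was 1.02, and both passed both cutoffs. Crlf2, which encodes the TSLP receptor chain, rose from 10.4 to 11.9 CPM at E18.5 to 25.9 to 28.4 CPM at P5 (log2 1.36, edgeR FDR 2.97e-08).

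Areg encodes amphiregulin, an epidermal growth factor receptor ligand made by ILC2 among other cells, and lies on chromosome 5 at 91139599 to 91148432 on the plus strand. The E15.5 libraries held 1.95 to 3.34 CPM of it, those of E18.5 held 1.5 to 3.23, those of P5 held 1.79 to 2.71 and those of P8 held 2.61 to 2.87. The ranges overlapped in all comparisons. The E18.5 to P5 difference was 0.08 on the log2 scale (SE 0.289, edgeR FDR 0.823), and none of the 6 comparisons of this gene passed the FDR. Among 9 tested epidermal growth factor receptor ligands and receptors, Hbegf, another ligand, rose between E18.5 and P5 (log2 1.98), while the receptor genes Erbb4 and Erbb3 fell by 2.63 and 1.16 on the log2 scale. The other 6 did not pass both cutoffs, and the list median was -0.08. Of all genes, 17.5% rose and 9.34% fell by the same rule.

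Il13 and Fcer1a sat at the limit of detection. Il13, which encodes an effector cytokine of ILC2, lies on chromosome 11 at 53631324 to 53634702 on the minus strand. It had 0 reads in all 6 embryonic libraries and 12 reads in the postnatal libraries, of which 1 was in P5 replicate 2, 3 in P5 replicate 3 and 8 in P8 replicate 2. The latter is the library with the highest level of thymus markers, and the part of thymus RNA in those 8 reads was not tested. Set against 3 reads over the 6 embryonic libraries, the 12 postnatal reads gave a ratio of 3.73 per mapped read. That value leaves out the counting error of the 12 reads, so it is no lower bound. Without P8 replicate 2 the same ratio was 1.51, on 4 reads, which is too few to show a difference. Of the 6 postnatal libraries, 3 held no read.

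Fcer1a, the ligand-binding chain of the IgE receptor, lies on chromosome 1 at 173221284 to 173227214 on the minus strand. It had 3 reads in the embryonic and 20 in the postnatal libraries, and 2 of the 6 postnatal libraries had none. Of the 20, 9 were in P8 replicate 1, the library highest in heart, oesophagus and brown fat markers. The part of neighbouring tissue in those 9 reads was not tested. The ratio of the summed levels was 6.22, with an exact 95% counting interval of 1.84 to 32.7 that leaves out the spread between libraries. Neither gene reached 0.1 CPM in 3 libraries, the minimum set for the limma test, so neither has a test of its own. With that minimum removed, no comparison of either gene passed an FDR of 0.05 in limma, nor in edgeR on the reads recovered from the CPM values, where the lowest FDR was 0.167.

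**Figure D2:**
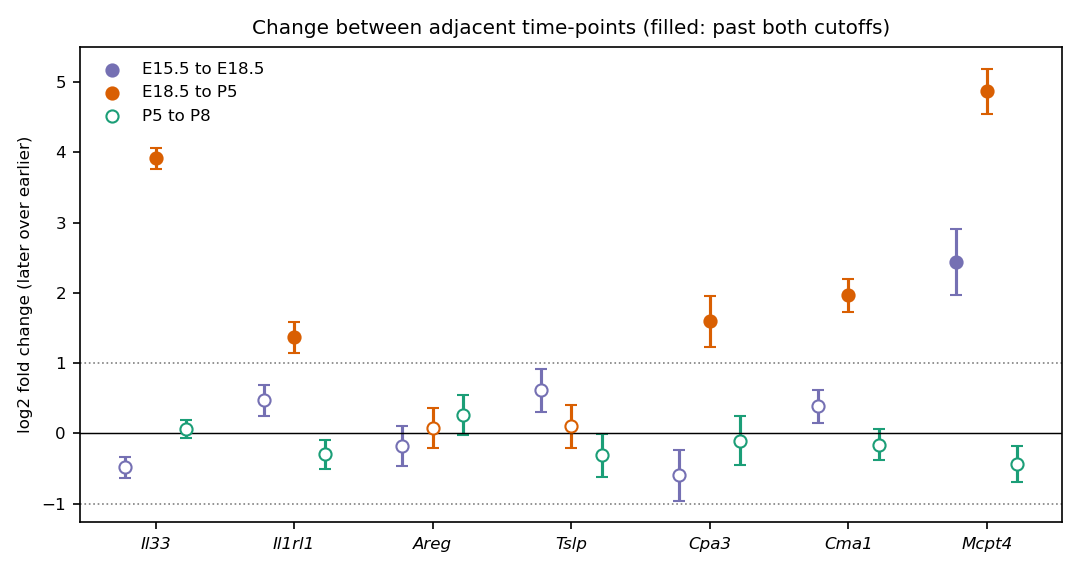
Log2 fold change (y axis, later over earlier) of the 7 members tested, with bars of 1 standard error, for the 3 intervals between adjacent time-points. Filled points passed both cutoffs, and dotted lines mark a log2 fold change of 1 in either direction. The filled points are the 5 of E18.5 to P5 and Mcpt4 in E15.5 to E18.5.

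Among the mast cell proteases, Mcpt4 had the largest changes of the 7 tested members. Mcpt4 and Cma1 encode chymases, and Cpa3 encodes carboxypeptidase A3. GATA2, a GATA factor, is a known regulator of mast cell genes. The 3 protease genes and Il1rl1 are 4 of the 5 members that rose between E18.5 and P5, and Il33 is the other. The 250 bases before the RefSeq transcription starts of the 3 protease genes and of Il1rl1 are shown. They come from RefSeq on GRCm38.p6, at chr3:20242182-20242431 (Cpa3, minus strand), chr14:56062311-56062560 (Mcpt4, minus strand), chr14:55944676-55944925 (Cma1, minus strand) and chr1:40429320-40429569 (the first start of Il1rl1, plus strand). Sequences run 5′ to 3′ toward the start, and capitals mark AGATAA or TGATAA.
Cpa3: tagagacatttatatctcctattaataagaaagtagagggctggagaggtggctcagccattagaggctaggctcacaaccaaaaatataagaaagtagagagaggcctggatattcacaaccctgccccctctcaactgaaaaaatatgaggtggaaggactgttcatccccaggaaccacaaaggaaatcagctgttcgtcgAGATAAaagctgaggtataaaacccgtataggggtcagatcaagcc
Mcpt4: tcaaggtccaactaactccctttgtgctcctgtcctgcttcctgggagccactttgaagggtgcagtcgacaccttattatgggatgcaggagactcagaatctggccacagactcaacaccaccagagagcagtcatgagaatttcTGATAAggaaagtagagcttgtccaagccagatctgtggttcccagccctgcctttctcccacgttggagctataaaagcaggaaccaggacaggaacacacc
Cma1: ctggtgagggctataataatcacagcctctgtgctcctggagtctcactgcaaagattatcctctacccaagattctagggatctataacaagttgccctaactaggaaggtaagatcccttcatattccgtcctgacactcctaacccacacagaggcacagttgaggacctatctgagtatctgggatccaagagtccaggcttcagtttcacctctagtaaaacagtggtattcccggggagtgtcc
Il1rl1: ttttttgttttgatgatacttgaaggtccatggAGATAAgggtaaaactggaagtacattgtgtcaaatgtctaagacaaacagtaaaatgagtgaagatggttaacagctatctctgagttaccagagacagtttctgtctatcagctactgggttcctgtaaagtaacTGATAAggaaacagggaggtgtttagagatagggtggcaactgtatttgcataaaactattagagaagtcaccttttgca

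AGATAA or TGATAA, searched on both strands, was found in 16.6% of the 32851 mouse promoter windows of this length. Cpa3 held it once, from 46 bases before the start, Mcpt4 once, from 103 bases, and Il1rl1 at 217 and 80 bases before its first start. The window of the second Il1rl1 start, not shown, held it once on the reverse strand, from 103 bases before that start. Cma1 held none in this window, nor did Areg or either start of Il33, while Il13 and Fcer1a each held 1. An E-box, CATGTG or CACGTG on either strand, was found in Fcer1a alone among these windows, against 17.6% of all promoters. The matches describe letters in the window and say nothing on binding. Gata2 itself rose from 14.1 to 16.1 CPM at E18.5 to 73.6 to 81.1 CPM at P5 (log2 2.40, edgeR FDR 5.10e-09), and Gata2 is also transcribed in other lung cells such as endothelium. Its part in the rise of any member was not tested.

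Cpa3 lies on chromosome 3 at 20215620 to 20242181 on the minus strand, with the microRNA gene Mir7007 inside it. It was at 2.1, 5.84 and 2.04 CPM at E15.5, and at 1.54, 2.47 and 2.54 CPM at E18.5. The P5 libraries held 6.90, 5.76 and 5.95 CPM and the P8 libraries 6.59, 5.90 and 5.05 CPM. E15.5 replicate 2 stood at the postnatal level, apart from the other 5 embryonic libraries. The rise from E18.5 to P5 was 3.02-fold (log2 1.60, SE 0.363, edgeR FDR 0.00167), with no overlap, as in 34.4% of all genes for a rise in that interval. From E15.5 to P5 the log2 fold change was 0.998 (edgeR FDR 0.0220, as under 0.05 for a rise in 37.1% of all genes), just under the fold cutoff. Of 20 alternative settings, 8 kept it uncalled and the rest put it past both cutoffs, among them DESeq2 (1.033), DESeq2 size factors in edgeR (1.033) and the 6 libraries alone (1.015). E15.5 replicate 2 is also the embryonic library with the most thymus marker RNA (62.7 CPM) and is among the 4 highest in heart, oesophagus and brown fat markers (690 CPM). Its T cell markers summed to 29.2 CPM, against 4.52 to 5.41 CPM in the other 5 embryonic libraries, and Cpa3 is known to be transcribed in early T cell precursors of the thymus as well as in mast cells. Without the 3 libraries highest in thymus markers, the E15.5 to E18.5 value of Cpa3 went from -0.60 to 0.08, and the rise from E15.5 became 1.69 to P5 and 1.36 to P8, both past the cutoffs. Without the 4 libraries highest in heart, oesophagus and brown fat markers these were 0.091, 1.699 and 1.372. The part of thymus RNA in the Cpa3 value of that library was not tested, and Mcpt4 and Cma1 in it were at 0.0393 and 2.18 CPM.

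Cma1, the mast cell chymase gene, lies on chromosome 14 at 55941451 to 55944675 on the minus strand. It was at 1.47, 2.18 and 1.61 CPM at E15.5, and at 1.81, 2.03 and 3.0 CPM at E18.5. The P5 libraries held 9.33, 7.60 and 8.20 CPM and the P8 libraries 8.76, 8.09 and 5.93 CPM. The 2 embryonic time-points overlapped, and so did the 2 postnatal ones. No postnatal library came down to the embryonic range, as in 26.6% of all genes. The rise from E18.5 to P5 was 3.91-fold (log2 1.97, SE 0.236, edgeR FDR 9.65e-06). The differences before and after it were 0.39 (edgeR FDR 0.267) and -0.16 (edgeR FDR 0.660) on the log2 scale.

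Mcpt4, which encodes mast cell protease 4, a chymase of connective tissue mast cells, lies on chromosome 14 at 56059629 to 56062313 on the minus strand. It had 3, 2 and 2 reads in the E15.5 libraries and 5, 13 and 20 reads in those of E18.5. At P5 it had 489, 307 and 356 reads, and at P8 251, 306 and 297 reads. In CPM these were 0.0393 to 0.0484 (E15.5), 0.103 to 0.366 (E18.5), 5.85 to 7.85 (P5) and 4.88 to 5.15 (P8). No 2 time-points overlapped, and E15.5 lay at the limit that 3 reads set. All postnatal libraries lay above all embryonic ones in 26.6% of all genes. Mcpt4 met the minimum for testing only through the postnatal libraries.

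The rise of Mcpt4 from E18.5 to P5 was 29.2-fold (log2 4.87, SE 0.323, edgeR FDR 5.66e-08). Between E15.5 and E18.5 the fitted log2 fold change was 2.44 (SE 0.466, edgeR FDR 0.00455), on 7 against 38 reads in all, whose ratio per mapped read was 5.71 with an exact 95% counting interval of 2.52 to 15.2. That embryonic rise did not pass without the 4 libraries highest in heart, oesophagus and brown fat markers (log2 2.55, edgeR FDR 0.124), where E15.5 is left with 1 library that is assumed to vary like the other groups. From P5 to P8 the log2 fold change was -0.44 (edgeR FDR 0.254), and the P8 libraries all lay below those of P5, as in 16.3% of all genes for a fall.

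The proportions of the proteases differed between libraries of different age. Mcpt4 and Cma1 have exons of similar summed length, 1108 and 1090 bases, and no stretch of either as long as a read is shared with another gene, although 5.48% of 50-base stretches of Mcpt4 are also in Cma2 or Mcpt9 and 5.38% of those of Cma1 in Gm48934. Mcpt4 reads were 1.80% to 3.30% of Cma1 reads at E15.5 and 5.68% to 12.3% at E18.5. They were 71.3% to 84.2% of Cma1 reads at P5 and 58.8% to 82.3% at P8. Every postnatal library had a higher ratio than every embryonic one, and the log2 ratio differed by 3.75 between the 6 postnatal and the 6 embryonic libraries. The two-sided exact permutation p was 0.00216, the smallest that 6 against 6 libraries allow (0.00361 adjusted over the 5 ratios tested, which were chosen after the levels were seen). Mcpt4 to Cpa3 differed by 4.50 with the same exact p. These tests, like those of the other ratios, treat the 6 libraries of a group as exchangeable, although they are littermates of 2 ages. The p-values describe these libraries and do not measure the spread between litters.

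The ratio of Cma1 to Cpa3 reads was 37.4% to 78.8% at E15.5, 82.2% to 118% at E18.5, 132% to 138% at P5 and 118% to 137% at P8. The postnatal minus embryonic log2 difference was 0.75 (exact permutation p = 0.00433, 0.00541 adjusted over 5 ratios), with the groups overlapping. It was 0.42 without the 4 libraries highest in heart, oesophagus and brown fat markers, with an adjusted exact p of 0.0714. Relative to Ptprc, the gene of the leukocyte antigen CD45, Cma1 went the other way. Its reads were 31.5% to 76.6% of Ptprc reads before birth and 7.48% to 17.9% after it (log2 difference -2.17, exact permutation p = 0.00216, 0.00361 adjusted over 5 ratios). Ptprc itself rose from 3.02 to 3.92 CPM at E18.5 to 42.5 to 56.9 CPM at P5. The ratio depends on the leukocyte marker chosen. The 10 leukocyte and macrophage markers had a median log2 fold change of 2.85 in that interval, against 1.97 for Cma1. C1qa (12.35 to 14.69 CPM per kilobase of exon) and Mrc1 (2.43 to 6.09) rose less than Cma1 (2.09 to 7.69).

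**Figure D3:**
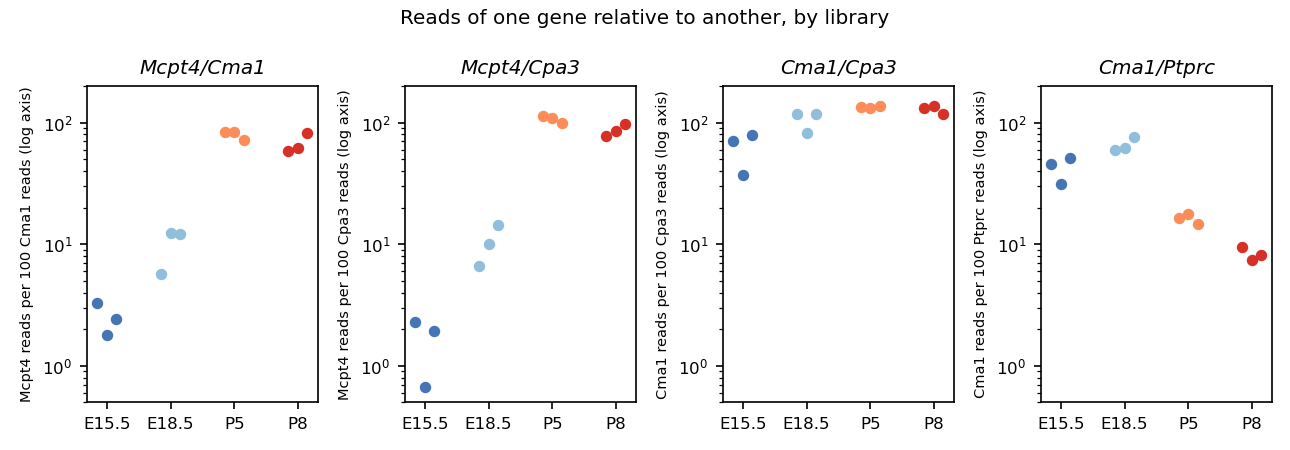
Reads of 1 gene per 100 reads of another (y axis, log scale) in each of the 12 libraries, by time-point (x axis), for 4 of the 5 ratios tested. Mcpt4 per Cma1 reads went from 1.80% to 12.3% in the embryonic libraries to 58.8% to 84.2% in the postnatal ones, while Cma1 per Ptprc reads fell.

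Other mast cell genes gave a mixed picture. Of 21 further granule and receptor genes, 10 had enough reads to be tested, and between E18.5 and P5 7 of these rose past both cutoffs and none fell, with a list median of 1.98, beside 17.5% of all genes higher and 9.34% lower. The tryptase gene Tpsb2 rose from 0.806 to 1.67 CPM at E18.5 to 5.62 to 6.67 CPM at P5 (log2 2.56, edgeR FDR 5.49e-06). Hdc, which encodes the enzyme that makes histamine, rose from 3.02 to 5.05 CPM to 47.4 to 53.4 CPM (log2 3.85, edgeR FDR 1.69e-08). Hdc also rose from E15.5 to E18.5 (log2 1.09, edgeR FDR 0.00852), and it was the only gene of this list to pass both cutoffs there.

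Srgn, the serglycin gene (log2 2.55), Fcer1g, the signalling chain shared by Fc receptors (2.16), Serpinb1a, a protease inhibitor gene (2.86), Cyp11a1 (1.79) and Rab27b, a gene of granule secretion (1.17), were the other 5 that rose. Cyp11a1 stayed under 1 CPM in every embryonic library and met the minimum for testing only through the postnatal libraries. Kit, the stem cell factor receptor, was at 0.95 with an edgeR FDR of 1.58e-05, just under the fold cutoff. The monoamine transporter gene Slc18a2 was at 0.10 (edgeR FDR 0.676). Several of these genes are shared with other leukocytes. Ptprc, 5 of 6 tested neutrophil markers and 9 of 10 leukocyte and macrophage markers rose in the same interval, beside 17.5% of all genes. The part of those cells in the rise of the shared genes was not tested.

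The genes of the mast cell list outside the tested set were few in reads. Ms4a2, the beta chain of the IgE receptor, was at 0 to 0.0983 CPM in the embryonic libraries and 0.261 to 0.755 CPM in the postnatal ones. The 2 groups did not overlap, as in 26.6% of the genes tested for a rise, and Ms4a2 was too low to be tested. Mrgprb2, the receptor for basic secretagogues on connective tissue mast cells, was at 0 to 0.157 CPM before and 0.0826 to 0.625 CPM after birth, with overlap. The mucosal mast cell protease gene Mcpt1 was at 0 in all embryonic libraries and at 0.128 CPM at most after birth, and Mcpt9 was at 0 in all 12. From E18.5 to P5 the means of Tpsg1 (0.0954 to 0.0164 CPM) and Mcpt2 (0.0433 to 0.0107 CPM) went down. Tpsab1, Mrgprb1, Cma2 and Ctsg had higher means at P5 and P8 than at either embryonic time-point, and Tph1 at P5 only. None of these was tested.

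Between E18.5 and P5, of 8 mast cell and basophil transcription factor genes, Gata2, Mitf (log2 1.84) and Cebpa (1.47) rose and none fell, beside 17.5% of all genes higher and 9.34% lower. Other cells also transcribe these genes, and 9 of 10 alveolar type 2, 5 of 6 endothelial and 9 of 10 leukocyte and macrophage markers rose in the same interval, whose part was not tested. Of 4 basophil genes tested, Mcpt8, the basophil protease gene (log2 2.12, edgeR FDR 0.00567), and Cd200r3 (1.47) rose. Il4, at 1.57 to 1.79 CPM before birth at E18.5, was at 0.888 to 1.23 CPM at P5 (log2 -0.53, edgeR FDR 0.0518). Of 10 tested ILC2 genes, Areg among them, 6 rose, including Il7r (log2 4.01), Ptgdr2 (3.78), Gata3 (2.13) and Icos (2.52), and Bcl11b fell by 1.75. These are shared with T cells, of which 4 of 5 markers rose in the same interval. Il7r, Ptgdr2, Icos, Mcpt8 and Cd200r3 stayed under 1 CPM in every embryonic library. They met the minimum for testing only through the postnatal libraries, so their calls carry little weight. Il5, the other main ILC2 cytokine, was at 0.0393 CPM or less in every library.

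Other alarmins and IL-1 family genes mostly rose with Il33. Of 10 tested, 8 rose between E18.5 and P5 and none fell, with a list median of 2.71, beside 17.5% of all genes higher and 9.34% lower. Il1rn rose from 0.0205 to 0.134 CPM to 13.5 to 20.4 CPM (log2 7.55, edgeR FDR 5.15e-08). Il1b (log2 5.35), Il1a (4.45), Il18 (2.60) and the IL-18 receptor genes Il18r1 (3.19) and Il18rap (2.82) rose as well. Several of these are leukocyte genes, and 9 of 10 leukocyte and macrophage markers and 5 of 6 tested neutrophil markers rose in the same interval, whose part in these values was not tested. Of 8 genes of the eosinophil list, 3 were tested, and these, Siglecf, Ear1 and Ear2, rose (log2 5.96 to 7.93). They are also genes of alveolar macrophages. Each had a mean under 1 CPM at both embryonic time-points and met the minimum for testing only through the postnatal libraries, so these calls carry little weight. Ccr3, Prg2, Epx, Il5ra and Ear6 were too low to be tested. Il1rn, Il1b, Il1a and Il18rap also stayed under 1 CPM in every embryonic library. Of 12 tested genes of the type 2 list, 7 rose and 1 fell, with a list median of 1.65, beside the same shares of all genes. Chil3 and Retnla, both also macrophage genes, rose (log2 7.29 and 5.14), as did the receptor gene Il4ra (1.30), whereas Ccl11, the eotaxin gene, fell by 4.34 on the log2 scale. Chil3 was at 0.115 CPM or less in every embryonic library and likewise met the minimum only through the postnatal libraries. Il9 had no reads in any library.

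**Figure D4:**
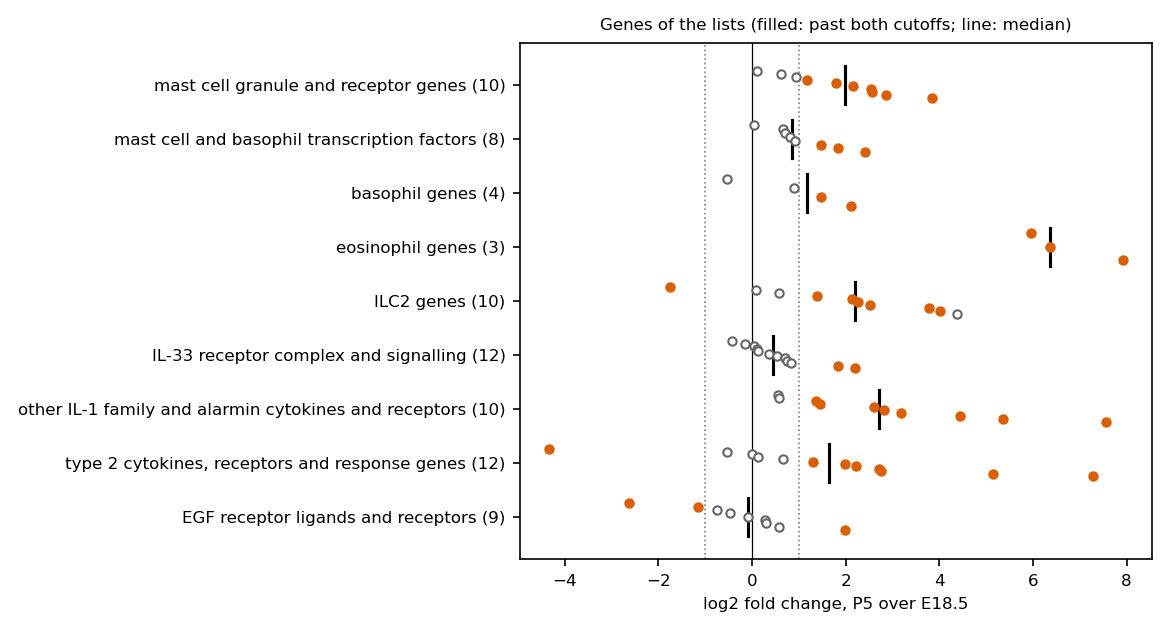
Change across birth (x axis, log2 of P5 over E18.5) of every tested gene of 9 lists, with the number tested in parentheses. Filled points passed both cutoffs, open points did not, vertical marks are list medians, and dotted lines mark a log2 fold change of 1 in either direction. The IL-1 family list (median 2.71) and the mast cell granule list (median 1.98) lie mostly to the right, and the epidermal growth factor list (median -0.08) lies on both sides of 0.

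Likeness of the members to each other over the 12 libraries is again a description with no test. Pearson r of log2(CPM + 1) was 0.981 between Mcpt4 and Cma1, 0.978 between Il33 and Mcpt4, 0.952 between Il33 and Cma1, and 0.920 between Il33 and Il1rl1. Cpa3 was less like Il33 (0.861) and Il1rl1 (0.775). Areg had r between -0.04 and 0.21 with the 6 other tested members, and Tslp between -0.09 and 0.32. The genes most like Mcpt4 were Sgpp2 (r = 0.998), Scd1 (0.997) and Arl11 (0.996), and those most like Cma1 were Clec4n (0.987), Fcgr3 (0.987) and Zdhhc14 (0.983). Il1rl1 was most like Scp2 (0.984), and 4833439L19Rik (0.947) and Slc22a3 (0.945) were among the 3 genes most like Cpa3. The nearest profiles to Areg were Tent5a (0.882) and 1700030J22Rik (0.809), and Zdhhc17 (0.886) and Samd8 (0.872) were among the 3 nearest to Tslp.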

How the data were processed

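Total RNA was extracted from whole lungs, and mRNA was sequenced as paired-end reads from 12 TruSeq libraries. Per the labels and the study's methods, the authors aligned reads to mm10 with TopHat2 2.1.1 and Bowtie2 2.3.4, and counted them per gene with HTSeq 0.10.0. The deposited raw counts cover 16152 genes that passed the authors' filter on low expression. The CPM values were deposited for 51825 genes, as counts divided by total mapped reads, and 100% of them gave a whole read within 0.01. Of the count table's identifiers, 16136 matched a symbol. A deposited table of splicing percentages named no genes and was not used.

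Counts were fitted in 1 edgeR 4.0.16 model (TMM, R 4.3.3) of all libraries, tested on simulated data first. Genes were kept at 1 CPM in 3 libraries of any time-point, so a gene low before birth could enter through the postnatal libraries alone. Calls needed a Benjamini-Hochberg FDR under 0.05 and a log2 fold change past 1. limma 3.58.1 on log2(CPM + 1), for genes at 0.1 CPM or more in 3 libraries, was meant for members outside the count table. DESeq2 1.42.0 was an alternative. Ratios used reads recovered from the CPM values plus 0.5, with exact permutation tests in scipy 1.17.1. Members and gene lists were chosen with earlier results of these data known. The text names all members, genes among the 3 most like each and genes of the lists (a few are not reported here), and some examples were chosen after their values were seen. Intervals cover counting error only. No replicates of a time-point were identical.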

Additional observations from a re-analysis of the deposited data

How the results depend on the processing

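Members called were recounted under other normalizations, filters, tools, designs and sets of libraries. Of the alternatives to called comparisons of a member, 375 kept direction and call and 4 lost the call, and of those to comparisons not called, 426 stayed so, 17 passed and 17 changed sign. The 5 calls of E18.5 to P5 and the 0 of P5 to P8 held when any 1 library was left out (5 to 5 and 0 to 0). The count for E15.5 to E18.5 was 1 to 2 with 1 library left out. It was 0 with only the 6 libraries of the comparison, where Mcpt4 was too low to be tested, 0 without the 4 libraries highest in heart, oesophagus and brown fat markers (chosen after seeing the data), and 2 by FDR alone. Leaving out 1 library gave 4 to 5 calls for E15.5 to P5, E15.5 to P8 and E18.5 to P8.

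Sign changes were all in differences that did not pass. With 1 library left out, the log2 fold change from E15.5 to E18.5 ran from -0.51 to 0.04 for Areg and -0.849 to 0.082 for Cpa3. From E18.5 to P5 it ran from -0.14 to 0.41 for Areg and -0.056 to 0.246 for Tslp, from P5 to P8 -0.02 to 0.18 for Il33, from E15.5 to P5 -0.27 to 0.11 for Areg, and from E15.5 to P8 -0.005 to 0.38 for Areg. Without the thymus-high libraries Cpa3 was 0.083 (E15.5 to E18.5) and Tslp 0.035 (E18.5 to P8). Without the 4 libraries above, Areg was 0.226 (E15.5 to E18.5) and 0.315 (E15.5 to P5), Cpa3 0.091 (E15.5 to E18.5) and Tslp 0.035 (E18.5 to P8). The cause was not tested.

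With 1 library left out, the log2 ratio differences ran from 3.49 to 3.99 (Mcpt4 to Cma1), 4.03 to 4.85 (Mcpt4 to Cpa3), 0.53 to 0.86 (Cma1 to Cpa3), -2.32 to -2.04 (Cma1 to Ptprc) and -0.18 to 0.30 (Il33 to Sftpc). Without the 4 libraries, Cma1 to Cpa3 was 0.421.

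Same-numbered replicates shared only a number (correlations of their deviations from -0.288 to 0.265). With the replicate block 1, 5 and 0 members were called in the 3 adjacent intervals, as without it, and Cpa3 from E15.5 to P5 was 1.102 and passed, which gave 5 calls there against 4, as under several other settings.

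Reads limit Il13, Fcer1a and embryonic Mcpt4. The limma test could not be fitted for Il13 and Fcer1a under its own minimum, so its alternatives have no main value to be set against.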
